A study of Mus musculus with 2 samples.

Results

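The core replication-dependent histone genes were taken as all rows of the feature table whose symbol begins with Hist1h2, Hist1h3, Hist1h4, Hist2h2, Hist2h3, Hist2h4, Hist3h2 or Hist4h4. The rule found 61 genes among 32285 features: 18 for H2A, 18 for H2B, 12 for H3 and 13 for H4. The study cultured mouse hematopoietic stem cells (HSCs) in suspension for 48 h, with the vehicle DMSO in one culture and with the compound RO-3066 in the other. Single-cell 3′ RNA libraries were prepared with the 10x Genomics workflow, 1 library per culture. The labels give blood as the tissue and name no strain, animal, age, dose or target of the compound, and its comparison with the vehicle is the question the design states.

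Core histones are the proteins that DNA is wound around: an H3-H4 tetramer is flanked by H2A-H2B dimers to form the nucleosome. Most of their genes lie in clusters and are transcribed in S phase, when newly copied DNA has to be packed. Their messages usually end in a conserved stem-loop, bound by Slbp, instead of a poly(A) tail, although polyadenylated forms of some of them have been described. The 10x workflow captures RNA through poly(A), so a UMI (unique molecular identifier, a count of a captured molecule) here shows only the captured share of these messages. How that share differs between genes, cells or cultures was not tested.

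Most members carry the stem-loop in the mm10 annotation (GENCODE vM21). The histone stem-loop was searched on the transcript strand after the stop codon as 16 letters: GG, 2 of any kind, CTT, 1 of any kind, T, 1 of any kind, A, 2 of any kind and GCC. It was found in 39 members, of 47 with 16 or more annotated bases after the stop codon. For each member only the transcript with the longest annotated stretch after the stop codon was searched. Other genes were searched in every protein-coding transcript, so the 2 counts are not on equal terms. Among 22466 other protein-coding genes, 27 held it (0.120%), and 5 of these have histone symbols, 4 of them linker histones. The following sites belong to the members whose values the results turn on. The 16 stem-loop letters are in capitals and the sequence runs 5′ to 3′ on the gene's strand, taken from the GENCODE transcripts.
Hist1h4d (chr13:23581945-23581972, plus strand): ccaaaGGCCCTTTTCAGGGCCactacct
Hist1h4i (chr13:22040959-22040986, minus strand): ttaaaGGCCCTTTTTAGGGCCaccacaa
Hist1h4a (chr13:23760793-23760820, minus strand): ccaaaGGCCCTTCTCAGGGCCgcccaca
Hist1h2ap (chr13:21833026-21833049, minus strand): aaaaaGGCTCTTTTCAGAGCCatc
Hist1h2ae (chr13:23570661-23570688, minus strand): acaaaGGCTCTTTTCAGAGCCattcact
Hist2h2ac (chr3:96220411-96220438, minus strand): aaaaaGGCTCTTTTTAGAGCCaccaaat
Hist1h3e (chr13:23561896-23561923, minus strand): aaaacGGCTCTTTTAAGAGCCacctcca
Hist1h3a (chr13:23761883-23761910, minus strand): ccaaaGGCTCTTTTCAGAGCCacacacg
The most frequent form, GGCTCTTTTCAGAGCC, stood in 21 members of classes H2A, H2B and H3, and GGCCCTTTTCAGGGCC stood in 7 members, all of class H4. Hist1h2bc, an H2B gene at chr13:23684199-23692908, had no match in the 742 bases after the stop codon of the transcript searched, which is 1156 bases long. Other forms of Hist1h2bc were not searched, so a stem-loop in them is not excluded. The annotated transcript ran 200 bases or more past the stem-loop in 14 members, among them Hist1h4d, and ended within 60 bases of it in 20. Hist1h2ap ended 3 bases past it.

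Members often stand head to head: of 13 such pairs of starts, 12 join an H2A with an H2B gene, and the other joins Hist1h2bh with Hist1h3f. These promoters are shown because they belong to an H4 gene, an H2A gene and the H2A gene that shares its start region with Hist1h2bc. Each spans 250 bases before to 50 after the start (RefSeq, GRCm38.p6), with the CCAAT box, the TATA box (TATAAA) and the octamer (ATTTGCAT) in capitals on either strand. The Hist1h2ae window reaches past the start of Hist1h2bg, 176 bases away on the other strand. Its TATA and octamer matches read on that other strand, so they can belong to Hist1h2bg and are not assigned to Hist1h2ae.
Hist1h4d (chr13:23581318-23581617, plus strand): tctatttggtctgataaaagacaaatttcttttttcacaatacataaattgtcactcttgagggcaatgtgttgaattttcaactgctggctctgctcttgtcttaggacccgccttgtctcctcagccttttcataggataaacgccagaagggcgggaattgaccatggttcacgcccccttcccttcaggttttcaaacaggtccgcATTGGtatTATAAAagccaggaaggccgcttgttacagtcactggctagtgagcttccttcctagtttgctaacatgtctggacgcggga
Hist1h2ae (chr13:23571171-23571470, minus strand): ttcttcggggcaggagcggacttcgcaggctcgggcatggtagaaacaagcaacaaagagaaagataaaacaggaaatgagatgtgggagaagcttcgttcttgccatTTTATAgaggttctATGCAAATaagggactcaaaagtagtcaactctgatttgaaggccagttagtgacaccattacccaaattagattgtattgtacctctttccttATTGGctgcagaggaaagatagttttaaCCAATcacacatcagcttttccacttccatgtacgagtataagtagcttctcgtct
Hist1h2ac (chr13:23683910-23684209, minus strand): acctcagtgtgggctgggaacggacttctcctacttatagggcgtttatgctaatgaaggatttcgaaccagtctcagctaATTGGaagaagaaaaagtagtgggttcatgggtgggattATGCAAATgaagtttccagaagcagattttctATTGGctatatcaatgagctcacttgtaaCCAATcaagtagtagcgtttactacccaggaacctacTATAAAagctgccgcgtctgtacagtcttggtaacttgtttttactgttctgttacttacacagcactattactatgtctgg
A promoter was matched for 56 members. CCAAT stood in 47 of them (83.9%), against 37.9% of 27025 promoters of the same length, and by class in 18 of 18 H2A, 16 of 16 H2B, 10 of 10 H3 and 3 of 12 H4 promoters. TATAAA stood in 31 (55.4%, against 14.2% of all promoters). The octamer ATTTGCAT stood in 13 (23.2%, against 1.75%), of which 7 were H2A and 6 H2B promoters. Both strands were searched, and the windows of an H2A and an H2B gene that stand head to head overlap. The same site can therefore count for both genes of a pair, and the counts are not of independent promoters. These are letter matches in a window and not measured binding sites.

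After filtering, 5833 DMSO cells (174790218 UMIs, median 24044 per cell) and 3683 RO-3066 cells (163712670 UMIs, median 34736) were kept. The RO-3066 cells held 1.44 times the median UMIs of the DMSO cells, so levels are given as UMIs per 1000000 UMIs of the library (CPM) and, per cell, after thinning each cell to 10000 UMIs. The libraries shared 7 cell barcodes. The stem cell label was checked against its markers: Kit stood at 68.9 and 101 CPM in DMSO and RO-3066, Hlf at 61.1 and 72.2 CPM, Mecom at 65.4 and 67.1 CPM, and Procr at 4.62 and 4.25 CPM. Markers of other blood cells were near 0 for lymphoid cells (5 of 5 under 1 CPM, summed 0.103 and 0.134 CPM) and for neutrophils and monocytes (6 of 6 under 1 CPM, summed 0.978 and 1.41 CPM). Megakaryocyte genes were abundant: Pf4 stood at 5118 and 4224 CPM, 4 of the 7 genes were at least 1.5-fold higher in RO-3066, and their sum was 5453 and 4775 CPM. Of the erythroid genes, Hbb-bt stood at 198 and 451 CPM. The part of these shifts in the histone results was not tested. With 1 library per culture the cultures could not be compared against replicates. No p-value is therefore given, and the 95% intervals cover counting error only.

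All 4 core histone classes were lower in the RO-3066 library than in the DMSO library. The 61 genes together gave 2590 CPM in DMSO (0.259% of UMIs) and 1258 CPM in RO-3066 (0.126%), a ratio of 0.486 (interval 0.483 to 0.488). H2A genes gave 1115 and 508 CPM (ratio 0.455, 0.452 to 0.459) and H2B genes 412 and 180 CPM (0.438, 0.432 to 0.444). H3 genes gave 363 and 190 CPM (0.522, 0.515 to 0.529) and H4 genes 699 and 381 CPM (0.544, 0.539 to 0.550). The intervals of the 4 classes do not overlap, and H2B and H2A had the lower ratios. Without Hist1h2bc, a choice made after seeing the data, H2B genes gave 334 and 161 CPM (0.481, 0.474 to 0.488), above H2A. Counted per cell instead, the core histones gave 77.6 UMIs in DMSO and 55.9 in RO-3066, a ratio of 0.721.

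A mean of 5 CPM or more over both libraries was reached by 37 members. A further 24 lay under 5 CPM, 8 of them under 1 CPM, and Hist1h2bq and Hist1h2ba had no UMI in either library. The most abundant of the 24 was Hist3h2ba, with 6.22 and 2.82 CPM. Of the 37, 32 were at least 1.5-fold lower in RO-3066 (86.5%) on the log2(CPM + 1) scale, where 2.02% of all 9080 genes at that level were. None of the 37 was 1.5-fold higher (background 4.59%), and 16 were at least 2-fold lower (background 0.551%). Their median log2 ratio was -0.99 (interval -1.05 to -0.86), beside -0.01 over the 9080 genes, and all 37 ratios were below 0, of which those of Hist1h4a, Hist1h3a, Hist1h4c and Hist1h4i turned above 0 in UMIs per cell. The count of 32 depended on how cells were weighted: it was 11 of 38 with each cell at the same weight, 16 of 38 after thinning and 8 of 38 in UMIs per cell. The share of all genes was not counted under these 3 settings, and the 2.02% does not apply to them. The members kept their order of abundance: across the 58 genes with a UMI in DMSO, the rank correlation of levels between the libraries was 0.989, a description over genes that share both libraries.

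**Figure D1:**
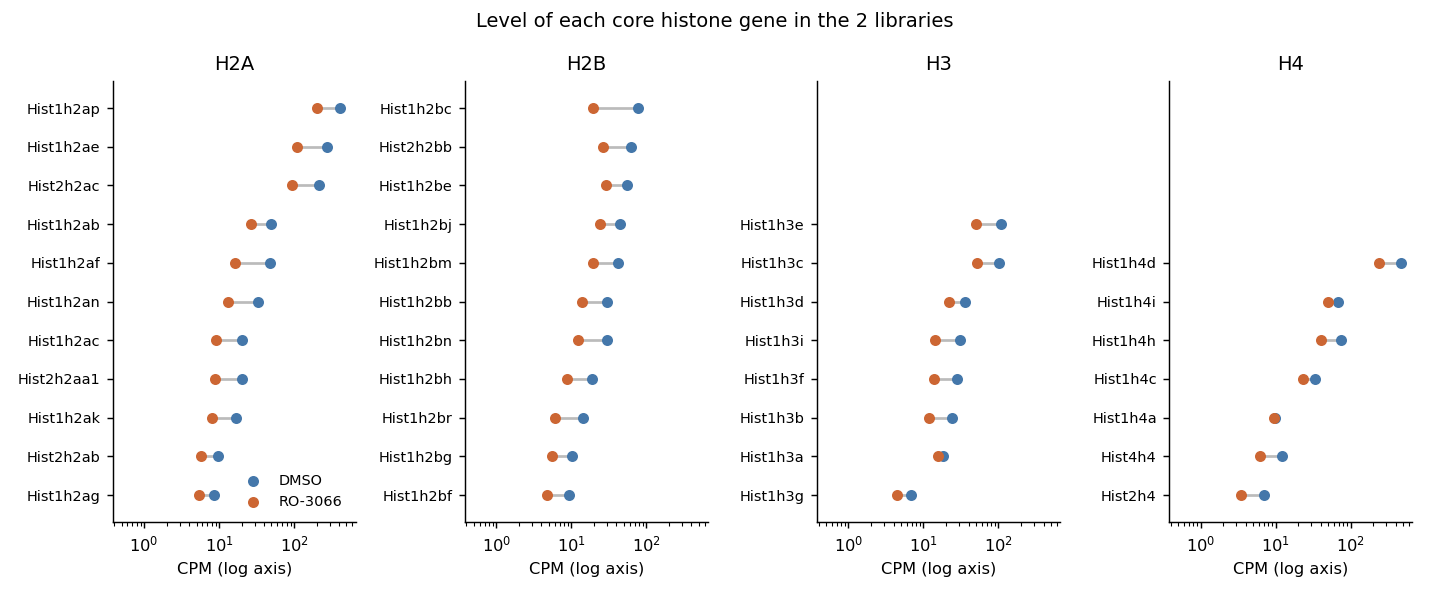
Level of the 37 core histone genes with a mean of at least 5 CPM, by class, on a log axis of UMIs per 1000000 (CPM). Each gene has a blue point for the DMSO library and an orange point for the RO-3066 library, 1 library each; Hist1h4a and Hist1h3a have the closest points and Hist1h2bc the widest gap.

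Among the H2A genes, whose products dimerize with H2B, the most abundant was Hist1h2ap, at 405 CPM in DMSO and 202 CPM in RO-3066 (ratio 0.499). Every 60-base word in the last 400 bases of Hist1h2ap also occurs in some other gene. Hist1h2ao (0.532 and 0.366 CPM) holds the most of these words, so the reads of Hist1h2ap cannot be assigned with certainty. Hist1h2ae lay below that ratio, with 276 and 111 CPM (0.402, 0.395 to 0.409), and so did Hist2h2ac with 214 and 93.4 CPM (0.436). Hist1h2ab stood at 49.7 and 26.3 CPM (0.530). Hist1h2af stood at 47.4 and 16.5 CPM (0.348, 0.334 to 0.364), the lowest ratio of the class. Hist1h2an stood at 32.6 and 13.3 CPM (0.407). All 11 H2A genes at 5 CPM or more were at least 1.5-fold lower, with log2 ratios from -1.47 to -0.59.

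The H2B genes were led by Hist1h2bc, at 78.2 CPM in DMSO and 19.7 CPM in RO-3066. Its ratio of 0.252 (0.242 to 0.262) was the lowest of the 37 members. Under 15000 UMIs per cell Hist1h2bc stood at 190.13 CPM in DMSO and 37.004 CPM in RO-3066. From 15000 to 25000 UMIs it stood at 92.26 and 49.97 CPM, and from 25000 to 40000 at 40.006 and 24.44 CPM. From 40000 to 60000 it stood at 53.39 and 12.49 CPM, and at 60000 or more at 113.2 and 13.97 CPM. Only from 25000 to 40000 UMIs did the core histones together have the lower ratio, 0.401. The part of depth in the Hist1h2bc ratio was not tested. Hist2h2bb stood at 63.0 and 26.7 CPM (0.424) and Hist1h2be at 54.8 and 28.7 CPM (0.523). Hist1h2bj gave 44.4 and 24.02 CPM (0.542), Hist1h2bm 41.8 and 19.6 CPM (0.470), and Hist1h2bb 29.9 and 14.1 CPM (0.472). Hist1h2bn gave 29.7 and 12.2 CPM (0.411). All 11 H2B genes at 5 CPM or more were at least 1.5-fold lower, from -1.94 to -0.77 on the log2 scale.

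Among the H3 genes, which encode the canonical H3 used behind the replication fork, Hist1h3e stood at 108 and 49.9 CPM (0.463) and Hist1h3c at 103 and 51.5 CPM (0.50). Hist1h3d gave 35.8 and 22.1 CPM (0.618), Hist1h3i 30.8 and 14.4 CPM (0.466), and Hist1h3f 28.3 and 14.04 CPM (0.495). Of 8 H3 genes at 5 CPM or more, 6 were at least 1.5-fold lower. The other two were Hist1h3a, with 18.0 and 15.4 CPM (0.858, 0.814 to 0.905), and Hist1h3g, with 6.76 and 4.47 CPM (0.661, 0.602 to 0.726).

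The H4 genes encode one and the same protein and differ in their flanks. Hist1h4d had the most UMIs of any member, 476 CPM in DMSO and 237 CPM in RO-3066 (0.499, 0.493 to 0.505). Hist1h4h stood at 74.1 and 40.6 CPM (0.547). Of 7 H4 genes at 5 CPM or more, 4 were at least 1.5-fold lower. Hist1h4i, at 67.5 and 49.8 CPM, had a ratio of 0.737 (0.716 to 0.758), and Hist1h4c, at 33.9 and 23.2 CPM, one of 0.684 (0.657 to 0.713). Hist1h4a stood at 9.86 and 9.39 CPM, a ratio of 0.952 whose interval of 0.889 to 1.02 spans 1. Together, Hist1h4d, Hist1h2ap, Hist1h2ae and Hist2h2ac, made up 52.9% of core histone UMIs in DMSO and 51.2% in RO-3066.

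By position the members fall into 7 loci when neighbours less than 100 kb apart are joined. The largest, at chr13:23531050-23762386, holds 24 members and gave 1522 CPM in DMSO and 730 CPM in RO-3066 (ratio 0.480), 58.8% of core histone UMIs in DMSO. It contains the highest and the lowest ratio of the 37 members at 5 CPM or more, Hist1h4a and Hist1h2bc. The 17 members at chr13:21715763-21837530 gave 594 and 289 CPM (0.487). Of these, the 7 at 5 CPM or more had log2 ratios from -1.24 for Hist1h2an to -0.997 for Hist1h2ak. The 5 members at chr13:22035164-22043676 gave 126 and 82.5 CPM, and their ratio of 0.655 (0.641 to 0.669) was the highest of the loci. Hist1h4i held most UMIs there and, of its 3 members at 5 CPM or more, had the highest ratio and Hist1h2bj the lowest. On chromosome 3, the 10 members at chr3:96219865-96270132 gave 324 and 145 CPM (0.447, 0.440 to 0.454). Of these, the 5 at 5 CPM or more had log2 ratios from -1.21 for Hist2h2bb to -0.66 for Hist2h2ab. Hist4h4 alone on chromosome 6 gave 12.2 and 6.20 CPM (0.508), and the 2 Hist3 genes on chromosome 11 gave 10.6 and 5.30 CPM (0.499). Hist1h2ba and Hist1h2aa, the testis H2B and H2A genes at chr13:23933773-23934851, gave 0 UMIs in DMSO and 2 in RO-3066, and no ratio is given. Apart from the Hist1h4i locus and that testis pair, the loci lay between 0.447 and 0.508.

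The levels of genes that share a start region were close in some pairs and far apart in others. Hist1h2ak and Hist1h2bn stood at 17.05 and 29.7 CPM in DMSO, with ratios of 0.472 and 0.411. Hist1h2ae stood at 276 CPM in DMSO and Hist1h2bg, 176 bases away, at 10.1 CPM, with ratios of 0.402 and 0.544. Hist2h2ac stood at 214 CPM and Hist2h2be, 239 bases away, at 2.42 CPM. For Hist1h2ac and Hist1h2bc the order was the other way round for H2A and H2B, with 20.4 and 78.2 CPM in DMSO, and ratios of 0.449 and 0.252. These levels are counts of captured 3′ ends, whose capture can differ between the genes of a pair.

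In single cells the core histone UMIs formed a low and a high range in both libraries. Cells with fewer than 10000 UMIs, 83 in DMSO and 123 in RO-3066, were left out of this count. Per 10000 UMIs, DMSO cells held a median of 22 core histone UMIs (lower and upper quartile 7 and 41.8) and RO-3066 cells a median of 7 (4 and 27). The highest cells were alike, with a 95th percentile of 61 and 62. The limit between the ranges was set after seeing the data, at 16, the lower edge of the lowest bin between them. In RO-3066 that dip was shallow, with 136 cells from 16 to under 23 UMIs and 183 in the wider bin from 23 to under 32. A limit of 16 called 3134 of 5750 DMSO cells histone-rich, 54.5% (exact binomial interval 53.2 to 55.8). In RO-3066 it called 1105 of 3560 cells, 31.0% (29.5 to 32.6). Within 14 to 17 UMIs lay 203 DMSO cells and 104 RO-3066 cells. The classes are ranges of a count and not cell types.

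**Figure D2:**
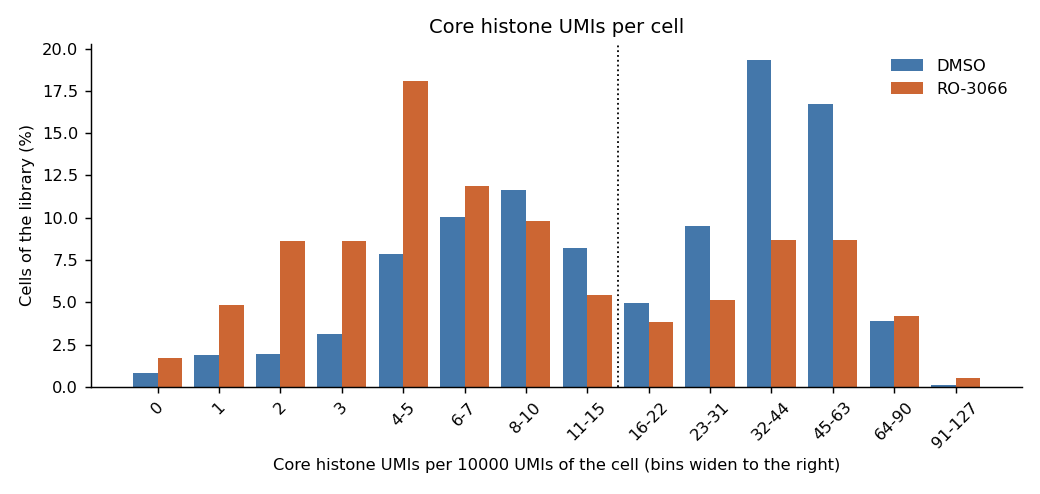
Share of the cells of each library (y axis, percent) by core histone UMIs per 10000 UMIs of the cell (x axis, bins widening to the right), with DMSO in blue and RO-3066 in orange. The dotted line marks the limit of 16: 54.5% of DMSO cells and 31.0% of RO-3066 cells lie to its right, and the high ranges cover the same bins.

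The level in histone-rich cells differed less between the cultures than their share of cells did. Their mean was 41.2 UMIs per 10000 in DMSO and 43.8 in RO-3066, a ratio of 1.06. Histone-poor cells had a mean of 7.08 and 5.21, a ratio of 0.736. Over all cells the mean was 25.7 and 17.2, a ratio of 0.670. With the RO-3066 share of rich cells and the DMSO levels the ratio would be 0.688, and with the DMSO share and the RO-3066 levels 1.02. The limit was applied to the same counts and bounds the levels inside each class, so these values are a description. They refer to the 0.670 of thinned cells and not to the ratio of 0.486 between the libraries. In DMSO 89.0% of the core histone UMIs came from histone-rich cells, and in RO-3066 71.2%. The part of RNA free in the droplets in the counts of histone-poor cells was not tested. The depth of the classes differed in opposite directions: histone-rich cells held a median of 26838 UMIs and histone-poor cells 20493 in DMSO, against 24045 and 40148 in RO-3066.

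Within the histone-rich cells, 45 members reached 5 CPM. Only Hist1h2bc was at least 1.5-fold lower in RO-3066 (background 2.03%), and Hist1h4a and Hist1h3a were at least 1.5-fold higher (background 3.82%). Hist1h2bc stood at 59.5 CPM in the histone-rich DMSO cells and at 21.1 CPM in the histone-rich RO-3066 cells (0.355, 0.329 to 0.384). Hist1h4a stood at 13.5 and 26.8 CPM (1.98, 1.82 to 2.15) and Hist1h3a at 24.4 and 43.5 CPM (1.78, 1.67 to 1.90). The median log2 ratio of the 45 was 0.10, beside 0.02 over all genes tested in those cells. By class the ratio in histone-rich cells was 1.05 for H2A, 0.972 for H2B (1.05 without Hist1h2bc), 1.15 for H3 and 1.16 for H4. In histone-poor cells 22 members reached 5 CPM and 8 were at least 1.5-fold lower (36.4%, background 2.87%), with a ratio of 0.413 for H2B and of 0.718 to 0.771 for the other classes. Without Hist1h2bc, H2B genes stood at 94.1 and 62.5 CPM in histone-poor cells, a ratio of 0.664 (0.643 to 0.687). These classes were made from the members' own counts, so the levels inside them are a description.

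**Figure D3:**
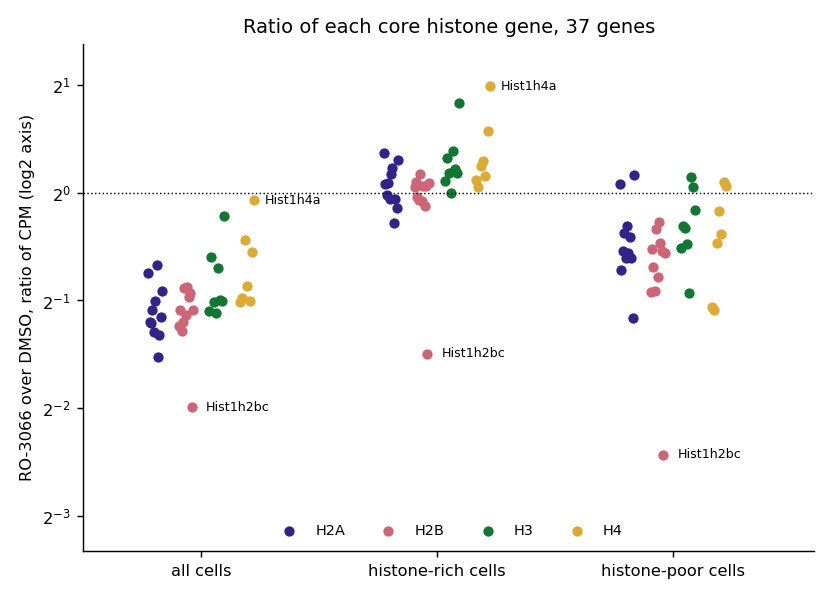
Ratio of CPM, RO-3066 over DMSO (log2 axis), of each of the 37 core histone genes in all cells, in histone-rich cells and in histone-poor cells, coloured by histone class. In all cells every point lies below 1; in histone-rich cells most lie near 1, with Hist1h2bc at 0.355 and Hist1h4a at 1.98.

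Hist1h2bc did not follow the other core histone genes from cell to cell. When cells were classed by the other members alone, Hist1h2bc was lower in histone-rich than in histone-poor DMSO cells, with a ratio of 0.497 (0.480 to 0.514). The RO-3066 cells gave 0.817 (0.746 to 0.895). Measured in the same way, Hist1h4d was 6.05 and 9.81 times higher in histone-rich cells in DMSO and RO-3066, and Hist1h2ae 9.59 and 15.1 times. Hist1h4i lay between, at 1.39 and 2.35. Of the core histone UMIs in histone-poor DMSO cells, Hist1h2bc made up 14.9%, against 1.53% in histone-rich cells, and in RO-3066 4.23% and 0.502%. Hist1h4i made up 7.59% in histone-poor and 1.99% in histone-rich DMSO cells. As a description over 5750 DMSO and 3560 RO-3066 cells that share a library, the correlation with the summed other members was 0.79 and 0.86 for Hist1h4d, 0.13 and 0.25 for Hist1h4i, and -0.25 and -0.04 for Hist1h2bc.

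The level of Pcna, the sliding clamp of the replication fork, went with a small difference in core histones. Cells were called Pcna-low at up to 1 and Pcna-high above 3 UMIs per 10000, the quartiles of DMSO. Core histones stood at 2415 CPM in Pcna-low and 2886 CPM in Pcna-high DMSO cells, and at 1230 and 1394 CPM in RO-3066. The log2 ratio of Pcna-high over Pcna-low cells was 0.26 in DMSO and 0.18 in RO-3066. In cells of 15000 to 40000 UMIs it was 0.19 in DMSO and -0.048 in RO-3066, so its direction in RO-3066 rests on cells outside that range. H2A genes had the larger ratio, 1.30 in DMSO and 1.21 in RO-3066, and H4 genes 1.06 in both. Of 40 members at 5 CPM in DMSO, Hist1h3a (1.58) and Hist1h4a (1.56) were at least 1.5-fold higher in Pcna-high cells (5%, background 1.16%). None of 35 was in RO-3066 (background 0.0979%). Hist2h2ab was the lowest of the 37 members in both libraries, at 0.652 and 0.790.

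The RO-3066 library was lower on either side of the Pcna split. In Pcna-low cells the ratio of RO-3066 over DMSO was 0.509 (0.505 to 0.514), with 30 of 36 members at least 1.5-fold lower (background 2.53%). In Pcna-high cells it was 0.483 (0.478 to 0.488), with 32 of 38 (background 1.89%). The share of histone-rich cells was 51.2% at 0 Pcna UMIs and 68.2% (60.7 to 75.1) at 7 or more in DMSO, and 30.3% and 52.6% (40.8 to 64.2) in RO-3066, where the last class holds 76 cells. Between 0 and 4 Pcna UMIs the RO-3066 shares ranged from 27.5% to 31.7% with overlapping intervals.

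The Mcm2 to Mcm7 genes, which encode the replicative helicase loaded on DNA before S phase, went the other way. The share of histone-rich cells was 60.6% (56.9 to 64.3) at 0 to 4 summed Mcm UMIs per 10000 and 34.4% (29.6 to 39.5) at 20 or more in DMSO. In RO-3066 it was 43.7% (35.4 to 52.2) and 14.5% (10.2 to 19.8). With the Mcm sum in place of Pcna, DMSO gave a log2 ratio of high over low cells of -0.22, and RO-3066 one of -0.73. The share in RO-3066 was the lower of the pair in each of the 7 Pcna and 5 Mcm classes.

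**Figure D4:**
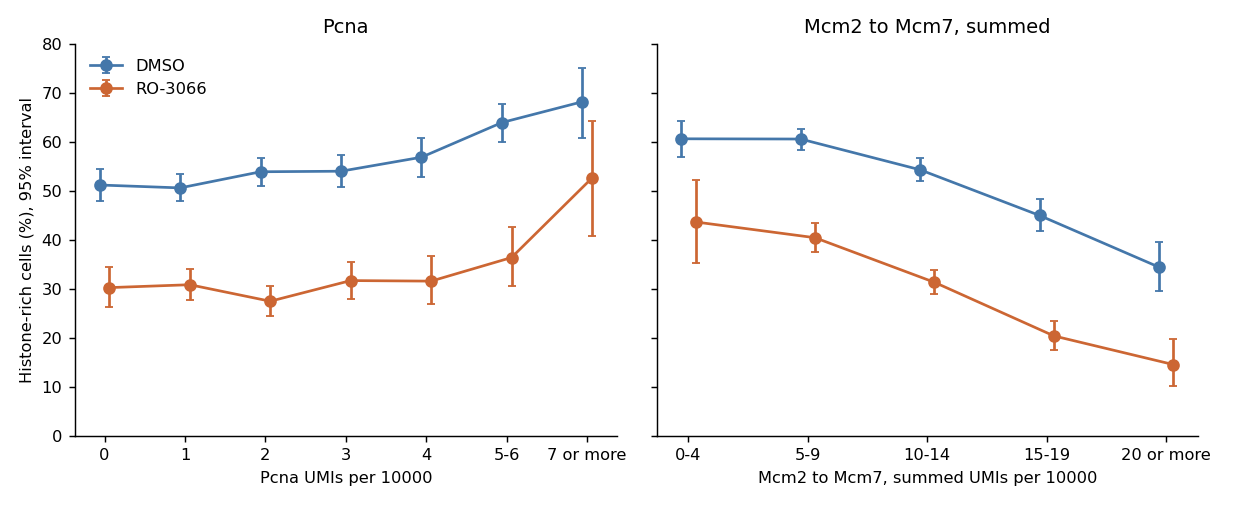
Share of histone-rich cells (y axis, percent, with exact 95% binomial intervals that cover counting error only) by Pcna UMIs per 10000 (left) and by the summed UMIs of Mcm2 to Mcm7 per 10000 (right), DMSO in blue and RO-3066 in orange. The share is higher at high Pcna, 68.2% at 7 or more in DMSO, and lower at high Mcm, 34.4% at 20 or more in DMSO.

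Pf4, a platelet chemokine gene, was used to rank cells by megakaryocyte expression. Pf4 classes 1 to 4 were set on the Pf4 share of UMIs in DMSO, with limits at its percentiles 25, 50 and 75, 0.0212%, 0.0559% and 0.271%. In DMSO the core histones stood at 2746, 2684, 2843 and 2342 CPM from class 1 to class 4, and in RO-3066 at 1859, 1668, 1390 and 660 CPM. Class 4 over class 1 gave a ratio of 0.853 in DMSO and 0.355 in RO-3066, or -0.23 and -1.49 on the log2 scale. The ratio of RO-3066 over DMSO was 0.677, 0.622, 0.489 and 0.282 in the 4 classes, and 0.275 (0.269 to 0.281) in cells above the 95th percentile of DMSO, 1.38% of UMIs. The difference between the libraries was therefore widest in Pf4-high cells.

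The UMIs of the cells moved with this result. The median per cell was 21523 in Pf4 class 1 and 33766 in class 4 of DMSO, and 25253 and 78924 in RO-3066. Among cells of 15000 to 40000 UMIs the log2 ratio of class 4 over class 1 was -0.047 in DMSO and 0.19 in RO-3066, so the direction in RO-3066 turned. The low core histone level of Pf4-high RO-3066 cells was thus seen in cells of other UMI counts. Mitochondrial shares differed little, with a median of 1.49% in both classes of DMSO and of 1.73% and 1.54% in RO-3066.

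By member, all 34 genes at 5 CPM in RO-3066 were at least 1.5-fold lower in Pf4 class 4 than in class 1 (100%, background 12.3%). In DMSO 2 of 40 were (5%, background 10.9%), Hist1h2ag at 0.564 and Hist1h3a at 0.592. Hist1h2bc went the other way in DMSO, with 74.1 CPM in class 1 and 92.6 CPM in class 4 (1.25, 1.19 to 1.31), and was lower in RO-3066, with 31.6 and 14.5 CPM (0.459, 0.420 to 0.50). In the Pf4-richest 5% it reached 115 CPM in DMSO and 21.0 CPM in RO-3066. These Hist1h2bc values were not compared in cells of like depth. Between libraries, 14 of 40 members were at least 1.5-fold lower in class 1 (35.0%, background 1.49%), and 35 of 35 in class 4 (100%, background 4.49%). The share of histone-rich cells in RO-3066 was 38.7% in class 1 and 13.3% in class 4. In DMSO it was 51.6% and 58.2%, against the direction of the CPM values, so no order is read from it.

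The direction of the difference between the libraries changed with the UMIs of the cell. In cells under 15000 UMIs (450 in DMSO, 350 in RO-3066) core histones stood at 1204 CPM in DMSO and 3592 CPM in RO-3066, a ratio of 2.98 (2.90 to 3.07). From 15000 to 25000 UMIs the ratio was 1.11, from 25000 to 40000 it was 0.401, and from 40000 to 60000 it was 0.864. At 60000 or more (350 and 830 cells) the levels were 2181 and 641 CPM, a ratio of 0.294 (0.291 to 0.297). The share of histone-rich cells was highest at 25000 to 40000 UMIs in DMSO (76.6%) and under 15000 UMIs in RO-3066 (77.1%), and it was 63.4% and 9.76% at 60000 or more. The 77.1% covers 227 of the 350 RO-3066 cells under 15000 UMIs, since cells with fewer than 10000 UMIs were not scored. Cells of 60000 or more UMIs also held more Pf4, 14957 CPM in DMSO and 7815 CPM in RO-3066, than those under 15000 UMIs, with 1012 and 768 CPM. The median mitochondrial share was 1.5% and 1.68% under 15000 UMIs. The part of depth in the lower core histone share of RO-3066 was not tested beyond these values.

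**Figure D5:**
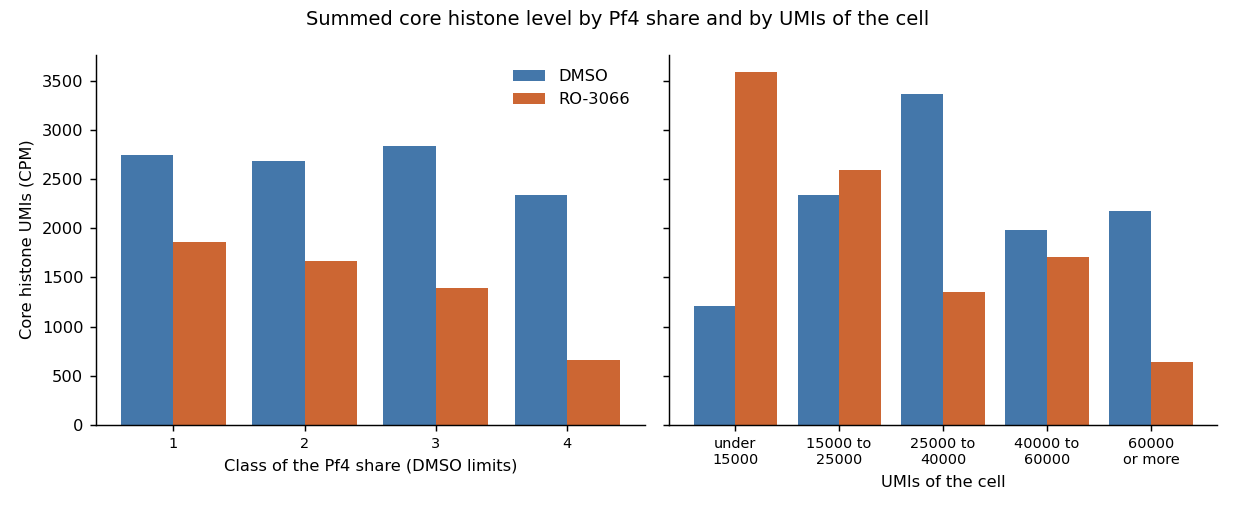
Summed core histone level in UMIs per 1000000 (CPM) by class 1 to 4 of the Pf4 share, with limits set in DMSO (left), and by the UMIs of the cell (right), DMSO in blue and RO-3066 in orange. On the left the RO-3066 bars descend from 1859 to 660 CPM; on the right the order of the libraries changes, from 3592 against 1204 CPM under 15000 UMIs to 641 against 2181 CPM at 60000 or more.

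Of the genes that make and process core histone messages, those past 1.5-fold were all genes for transcription. Of 11 genes for histone transcription, 2 were lower by 1.5-fold or more with RO-3066 (background 2.02%) and 2 higher (background 4.59%). The lower genes were Ccne1 (18.9 and 8.67 CPM, ratio 0.460) and Ccne2 (68.1 and 33.5 CPM, 0.492), the cyclin partners of Cdk2. The higher genes were E2f1 (37.2 and 58.5 CPM, 1.57) and E2f2 (3.97 and 7.83 CPM, 1.97). Npat, the coactivator of the histone locus body, stood at 25.9 and 25.1 CPM (0.970) and Casp8ap2, another component of that body, at 101 and 111 CPM (1.10). None of 13 genes at 5 CPM or more for message processing and decay passed 1.5-fold, with Slbp, the stem-loop binding protein, at 125 and 131 CPM (1.05). None of 15 histone chaperone genes and none of 8 replacement variants at that level did either, with median log2 ratios of -0.20 and -0.33. Of 21 S phase genes, Ung was lower (0.450) and Cdt1 higher (1.57), while Pcna stood at 222 and 221 CPM (0.996). Among the linker histones, which bind the DNA entering and leaving the nucleosome, 6 of 7 were at least 1.5-fold lower (background 2.02%). They ranged from Hist1h1b (1416 and 415 CPM, 0.293) to Hist1h1a (106 and 48.1 CPM, 0.455).

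The linker histones and H2afx went with the core histones from cell to cell. In histone-rich over histone-poor cells 6 of 7 linker genes were at least 1.5-fold higher in DMSO and 7 of 7 in RO-3066 (background 1.91% and 3.84%), with median ratios of 4.52 and 8.80. H2afx, an H2A variant marked at DNA breaks, had ratios of 1.61 and 3.48, and H2afv, another H2A variant, 1.07 and 1.78. None of the processing and chaperone genes passed 1.5-fold in either library, with Slbp at 0.883 and 1.15. Of the 11 transcription genes, E2f1 passed it in RO-3066, with 0.759 in DMSO and 0.658 in RO-3066. Of the S phase genes, Tyms (1.69 and 1.63) and Tk1 (1.90 and 1.55), which supply thymidine nucleotides, were higher in histone-rich cells of both libraries. Cdt1 (0.486 and 0.973), Cdc6 (0.539 and 0.881) and Ung (0.386 and 0.616) were lower by 1.5-fold in DMSO, and of these Ung alone in RO-3066. The backgrounds above are for higher genes, and no share of all genes is given beside the lower calls, that of E2f1 included.

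The annotated ends and near copies of the members bear on their counts. The 20 genes that end within 60 bases past the stem-loop gave 37.1% of core histone UMIs in DMSO, and the 13 of them at 5 CPM or more had a median ratio of 0.512. The 14 that run 200 bases or more past it gave 33.6%, and the 11 of them at 5 CPM or more had a median ratio of 0.499. In 34 members at least 50% of the 60-base words of the last 400 bases also occur in another gene, and the counts of these are uncertain between copies. Hist1h2bc, Hist1h4d and Hist1h4i, with ratios of 0.252, 0.499 and 0.737, are among the 14 with no shared word in those bases. The words came from a single transcript of each gene, and where the reads fell was not tested.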

How the data were processed

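The authors deposited raw UMI counts per gene and cell for 2 libraries. Cell Ranger 5.0.1 and mm10 are named per the submitters' processing notes, while the matrix headers name Cell Ranger 7.1.0. Cells with at least 1000 UMIs, 500 genes and at most 10% mitochondrial UMIs were kept. Doublets were scored against simulated ones, and 301 DMSO and 115 RO-3066 cells (4.91% and 3.03%) were removed. Counts were summed per library or cell class. Ratios have exact conditional Poisson intervals and shares exact Clopper-Pearson intervals (95%). Calls used log2(CPM + 1), a mean of 5 CPM and 1.5-fold, and were tested on simulated data. Thinning kept 10000 UMIs per cell. Members and gene lists were chosen with earlier results of these data known. Named were all members at 20 CPM, those at 5 CPM within 1.5-fold, the extremes by class and locus, and list genes past 1.5-fold. Alternatives covered scaling, weighting, filters and depth. The software was Python (3.11.15) with scipy (1.17.1), pandas (2.3.3) and numpy (2.4.6).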

Additional observations from a re-analysis of the deposited data

Results flagged for a closer look

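Hist1h2bc went opposite ways in the libraries along Pf4 and Pcna. Pf4 class 4 over class 1 gave a ratio of 1.25 in DMSO and 0.459 in RO-3066, and the Pf4-richest 5% over class 1 gave 1.56 in DMSO (interval 1.47 to 1.64) and 0.664 with RO-3066 (0.584 to 0.753). Pcna-high over Pcna-low cells gave 1.32 (1.26 to 1.38) with DMSO and 0.905 with RO-3066 (0.820 to 0.997). With 1 library each, the difference was not tested.

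The core histones as a whole went opposite ways by cell depth, with RO-3066 over DMSO at 2.98 in cells under 15000 UMIs and 0.294 in cells of at least 60000. This difference was not tested either.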

How the results depend on the processing

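No paired analysis was possible because each culture has 1 library. With 1 library each, no alternative shows how far the values would move between cultures. Over 8 settings, all 32 class values stayed below 0, and so did 285 of 296 values of single members. Core histones had a log2 ratio of -1.04, which was -1.03 after median-ratio scaling, -0.55 with each cell at the same weight, -0.58 after thinning to 10000 UMIs, -0.47 in UMIs per cell, -1.05 with doublets kept and -1.05 in all barcodes. It was -0.72 in cells of 15000 to 40000 UMIs and -1.05 without the member with the most UMIs. Chosen after seeing the data, UMI ranges gave 1.58 under 15000, 0.15 at 15000 to 25000, -1.32 at 25000 to 40000, -0.21 at 40000 to 60000 and -1.77 at 60000 or more. Without the Pf4-richest 5% of cells it was -1.01.

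The member median of -0.99 was -0.47 with equal cell weights, -0.55 after thinning, -0.43 in UMIs per cell, -0.67 in cells of 15000 to 40000 UMIs and -0.81 with a pseudocount of 5. Of the members, 32 were at least 1.5-fold lower, against 11 with equal weights, 16 after thinning, 8 in UMIs per cell, 20 at a mean of 20 CPM and 16 at 2-fold. For equal weights, thinning, UMIs per cell and the mean of 20 CPM, the share of all genes was not counted. Hist1h4i turned to 0.13 in UMIs per cell. Hist1h4c turned to 0.052 with equal weights and 0.021 in UMIs per cell. In the order equal weights, thinning, UMIs per cell and cells of 15000 to 40000 UMIs, Hist1h4a turned to 0.25, 0.20, 0.46 and 0.18, and Hist1h3a to 0.20, 0.077, 0.33 and 0.13.

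Pcna-high over Pcna-low cells gave 0.26 in DMSO and 0.18 in RO-3066, against -0.22 and -0.73 with the Mcm sum, 0.23 and 0.14 with thinned counts, and 0.19 and -0.048 in cells of 15000 to 40000 UMIs. Tertile limits fell on the same whole UMIs as the quartiles and left these values as they were. Pf4 class 4 over class 1 gave -0.23 and -1.49, against -0.36 and -1.66 for the Pf4-richest 5%, -0.081 and -1.38 with thinned counts, and -0.047 and 0.19 in cells of 15000 to 40000 UMIs. Without Pf4 in the total the DMSO value was -0.21, and with limits of its own library the RO-3066 value was -1.37. Histone-rich cells were 60.1% and 34.7% at a limit of 12, and 48.7% and 26.6% at 24, limits chosen after seeing the data. The cause of these changes was not tested.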
